A study of Mus musculus with 8 samples.

Results

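Microglia of control-genotype mice with experimental autoimmune encephalomyelitis (EAE) were set against microglia of naive mice of the same genotype. The comparison uses 2 of the 8 arrays of the series, the one titled FL EAE MG and the one titled FL naive MG, with 1 array a side. The members were therefore chosen by title, and the genes compared were those above the median of the named probe sets on at least 1 of the 2 arrays. Of 30743 genes with a name, 16511 met that limit. With 1 array a side there is no spread between replicates, so every difference below is a description of these arrays without a test, and anything else that differs between the 2 arrays cannot be told apart from EAE.

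The series crossed 2 genotypes with 4 states on Affymetrix mouse whole-transcript arrays, in a study of mice that lack connexin 47 (Cx47), a gap junction protein of oligodendrocytes, in oligodendroglia. The FL groups are taken here as mice with floxed, undeleted Cx47, since the label of another FL array calls its mice wild type and the design text names the FL naive array as control. All groups are given as strain C57Black/6J and tissue microglia. The groups used are FL EAE and FL naive, icKO EAE and icKO naive (Cx47-deficient mice), FL EAE treated with iguratimod, a drug against rheumatoid arthritis, and the F/F EAE array whose label carries the mark p50. The labels state neither the age of the mice, nor the stage of EAE, nor how many animals stand behind an array, nor how the cells were sorted, nor the driver of the Cx47 deletion.

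EAE is an autoimmune disease of the central nervous system, raised in mice by immunity to myelin and used as a model of multiple sclerosis. Microglia, the resident macrophages of the brain and spinal cord, survey the healthy tissue through purinergic and chemokine receptors. Under T cell-driven inflammation, interferons induce antigen presentation, chemokines and antiviral genes in them, while neutrophils and monocytes enter the tissue from the blood. Microglia also react to the cell dissociation used to isolate them, with immediate early genes.

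The labelled cell type was checked against 10 microglia lineage markers, 9 of which were measured and kept. All levels here are log2(intensity + 16), called log2 levels, and all differences are FL EAE minus FL naive on that log2 scale. Cx3cr1, the fractalkine receptor gene, stood at 18.27 in FL EAE and 18.26 in FL naive. P2ry12, an ADP receptor gene of microglia, stood at 13.52 in FL EAE and 13.64 in FL naive, and Tmem119, a microglial membrane protein gene, at 10.90 in FL EAE and 10.69 in FL naive. The summed intensity of the 9 markers was 509489 in FL EAE and 505337 in FL naive, most of it on both arrays from Cx3cr1 alone. None of the 9 differed by 2-fold, and their differences ran from -0.69 for Fcrls to 0.56 for Trem2. Of the other cell types, no neuron marker of 9 and 1 oligodendrocyte marker of 14 (Mag, at 8.42 in FL EAE and 8.40 in FL naive) passed the brightness limit. Of 8 astrocyte markers, 3 passed it, with differences from 0.23 to 0.45. Of 10 endothelial and mural markers, 3 passed it, with differences from -0.51 to 0.79.

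In all, 834 genes (5.05% of those compared) were at least 2-fold higher in FL EAE than in FL naive, and 571 (3.46%) were at least 2-fold lower. The median difference over all 16511 genes was 0.04. The balance differed by kind of gene. Among 8840 genes of the kinds named here, which leave out numbered or predicted genes (1031 of 1122 lncRNAs among them), numbered pseudogenes, small RNAs, chemosensory receptors and antigen receptor segments, 341 (3.86%) exceeded their FL naive level by 2-fold or more and 44 (0.498%) fell short of it by as much, with a median of 0.12. Among the 7671 genes of the other kinds, 493 were higher and 527 lower by that much, with a median of -0.16. Those kinds thus held 59.1% of the higher and 92.3% of the lower genes.

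**Figure D1:**
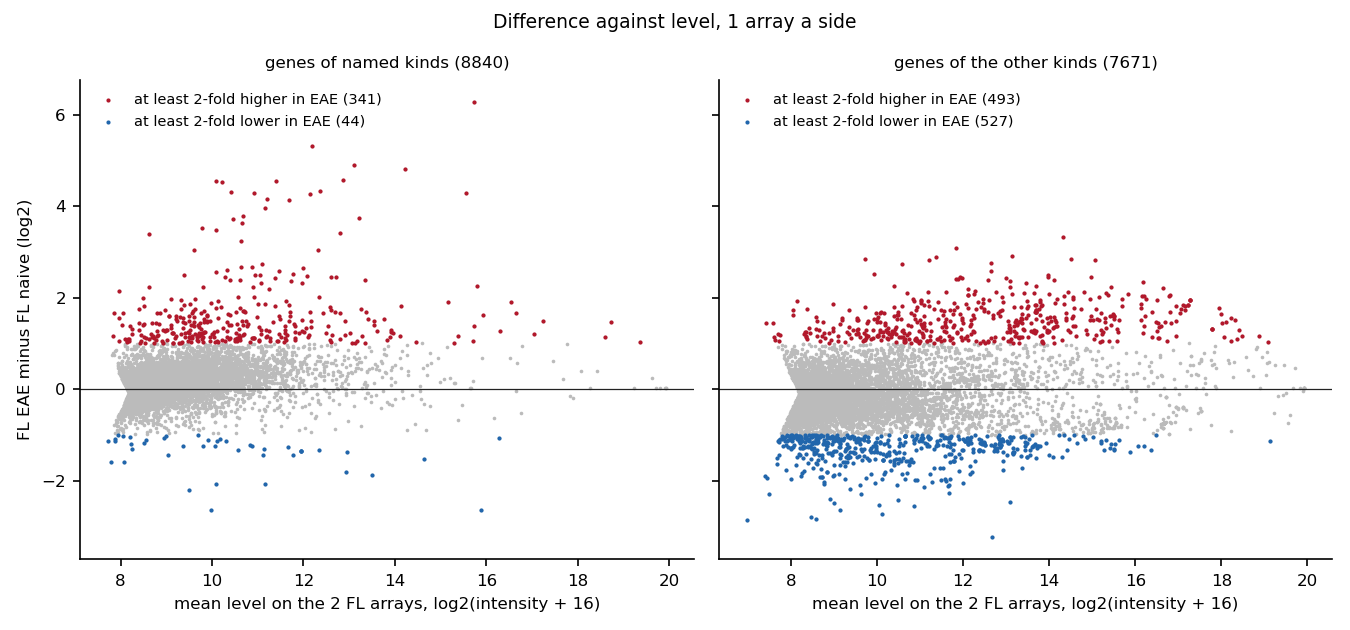
Difference between FL EAE and FL naive (vertical axis, log2) against the mean log2 level on the 2 FL arrays (horizontal axis), each point a gene, for 8840 genes of named kinds (left) and 7671 of the other kinds (right). Red points are at least 2-fold higher in FL EAE (341 and 493 genes) and blue points at least 2-fold lower (44 and 527 genes), so the lower genes lie mostly in the right panel.

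Differences past 2-fold were most frequent among bright genes. When the 16511 genes were divided by mean level into 5 bins of equal size, the SD of the difference was 0.43, 0.39, 0.43, 0.58 and 0.91 from the dimmest bin to the brightest. At least 2-fold higher in FL EAE were 35, 37, 53, 164 and 545 genes of these bins, and 87, 57, 78, 94 and 255 were at least 2-fold lower. Genes of named kinds in the brightest bin numbered 1028, of which 166 (16.1%) were higher and 18 lower by 2-fold. Differences above 0 were found for 68.8% of all genes of named kinds and for 83.1% of those in the brightest bin, whose median was 0.40. Of the genes of named kinds, 780 passed the brightness limit on the FL EAE array alone, among them 50 of the 341 higher genes, and 377 on the FL naive array alone, among them 12 of the 44 lower genes. Such genes can differ only one way by much. Where a list described below holds several of them and its median is given, the median over all measured members is given too.

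Genes of neutrophil granules led the higher side. S100a8, which encodes a subunit of the alarmin calprotectin, stood at 18.88 in FL EAE and 12.60 in FL naive, 77.7-fold higher in FL EAE (difference 6.28). Its partner S100a9 stood at 17.69 in FL EAE and 13.41 in FL naive. Camp, the gene of the antimicrobial peptide cathelicidin, stood at 15.56 in FL EAE and 10.66 in FL naive, and Ngp, neutrophilic granule protein, at 16.62 in FL EAE and 11.81 in FL naive. Ltf (lactoferrin), Mmp8 (neutrophil collagenase), Retnlg (a resistin-like protein) and Wfdc21 (a whey acidic protein family member) were higher by 4.55, 4.31, 4.57 and 5.32. Of 12 neutrophil markers kept from a list of 15, 10 were at least 2-fold higher and none lower, with a median of 4.43. The 2 that fell short of 2-fold were Cxcr2, a chemokine receptor gene of neutrophils (0.74), and Ly6g, the surface marker used to sort them (10.52 in FL EAE and 10.01 in FL naive, 0.51). Elane and Mpo, enzymes of immature neutrophils, and Mmp9 did not pass the brightness limit on either array. Summed over all 15 measured markers, kept or not, the neutrophil intensity was 950907 in FL EAE and 35748 in FL naive. Most of the FL EAE sum came from S100a8 and S100a9. In such bulk RNA, more cells of a type and more RNA per cell cannot be told apart.

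Monocyte markers followed. Ly6c2, the surface marker of inflammatory monocytes, stood at 14.27 in FL EAE and 10.02 in FL naive, and Lyz2, the lysozyme of macrophages and neutrophils, at 15.08 in FL EAE and 11.35 in FL naive. Ms4a4c and Plac8, genes of recruited monocytes, were higher by 2.39 and 1.97, and Ccr2, their chemokine receptor gene, by 0.81. Of 10 monocyte markers kept from 13, 7 were at least 2-fold higher, and the median was 1.78 (1.44 over all 12 measured). Summed over all 12 measured, the monocyte intensity was 66876 in FL EAE and 7177 in FL naive, most of the FL EAE sum coming from Lyz2 and Ly6c2. These sums differ between the same 2 arrays as every immune gene group below, and their part in those differences was not tested.

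**Figure D2:**
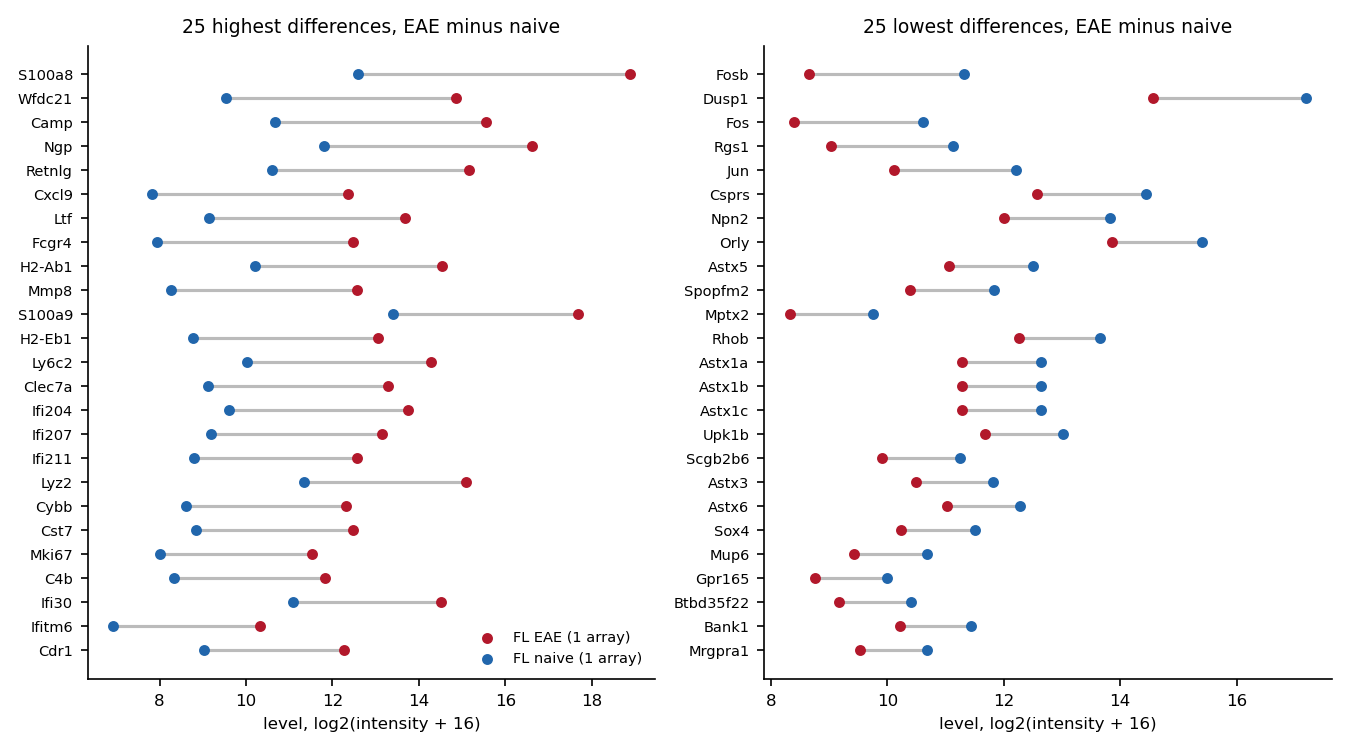
Log2 levels on the FL EAE array (red) and the FL naive array (blue) of the 25 genes with the highest differences (left) and the 25 with the lowest (right), among 2868 genes of named kinds in the upper range of brightness. The left panel opens with S100a8 (18.88 in FL EAE, 12.60 in FL naive) and the right panel with Fosb (8.66 in FL EAE, 11.31 in FL naive).

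Differences over 2-fold were found in both classes of antigen presentation genes. H2-Ab1, a chain of the classical MHC class II molecule that presents peptides to helper T cells, stood at 14.53 in FL EAE and 10.21 in FL naive, 20.0-fold higher in FL EAE. H2-Eb1, another class II chain, stood at 13.06 in FL EAE and 8.78 in FL naive, and H2-Aa, the partner of H2-Ab1, at 11.62 in FL EAE and 9.03 in FL naive. The peptide editors H2-DMb1 and H2-DMa were higher by 1.70 and 1.41, and H2-Oa, which restrains that editing, by 1.23. Ciita, the class II transactivator gene, stood at 8.20 in FL EAE and 8.01 in FL naive, close to the brightness limit. Ctss, the protease that trims the invariant chain, was at 18.62 in FL EAE and 18.23 in FL naive. Of 11 kept class II genes, 6 were at least 2-fold higher and none lower, with a median of 1.23. Ifi30, a lysosomal thiol reductase that opens antigens for class II loading, stood at 14.51 in FL EAE and 11.09 in FL naive.

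In the class I list, all 9 kept genes had differences above 0, as had 68.8% of the genes of named kinds, and 6 were at least 2-fold higher (median 1.47). The heavy chain genes H2-K1 and H2-D1 were higher by 2.64 and 2.46. B2m, the light chain of class I molecules, stood at 19.17 in FL EAE and 18.03 in FL naive, near the top of the intensity scale. Tap1, a subunit of the peptide transporter, was higher by 1.47, whereas its partner Tap2 differed by 0.11. Psmb8 and Psmb10, catalytic subunits of the immunoproteasome that cuts peptides for class I, were higher by 1.22 and 1.14, and Psmb9 by 0.84. The class I heavy chain genes share sequence with each other, so their separate values are uncertain.

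Interferon-induced genes formed the next group. All 23 kept genes of the antiviral list lay above 0, where 68.8% of the genes of named kinds did, and 10 of them were at least 2-fold higher, with a median of 0.83. Of the 23, 5 passed the brightness limit on the FL EAE array alone, 3 of them among the 10, and the median over all 24 measured was 0.77. Ifitm3, which blocks virus entry, stood at 11.51 in FL EAE and 9.06 in FL naive, and Oas2, a sensor of double-stranded RNA, at 9.74 in FL EAE and 7.51 in FL naive. Stat2, a transcription factor of type I interferon signalling, was higher by 1.74. The ubiquitin-like Isg15 and the GTPase gene Mx1, which are often used as reporters of type I interferon, differed by 0.33 and 0.31. Irf7 and Irf9, transcription factors of the same pathway, differed by 0.71 and 0.28. Among 10 kept interferon-induced GTPase genes, which act against intracellular pathogens, 6 were at least 2-fold higher (median 1.24). Gbp2 stood at 10.63 in FL EAE and 8.14 in FL naive, and Gbp7 at 11.49 in FL EAE and 9.73 in FL naive. In the p200 family, which includes sensors of cytosolic DNA, 4 of 6 kept genes were at least 2-fold higher (median 3.01). Ifi204, Ifi207 and Ifi211 were higher by 4.14, 3.96 and 3.78, while Aim2, the inflammasome sensor of that family, differed by 0.21. Members of the p200 family are near copies of each other, so values of single members are uncertain.

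The promoters of the interferon genes were read against the interferon-stimulated response element (ISRE), the site of STAT and IRF factors, taken as GAAA, any 2 bases and GAAA, on either strand. RefSeq promoters of build GRCm38.p6 were used, each 300 bases long, with 250 bases before the start of the gene and 50 after it. The ISRE letters occurred in 40 of the 311 promoters of the at least 2-fold higher genes of named kinds (12.9%), in 1 of the 33 promoters of the at least 2-fold lower genes, in 3.46% of the 9007 promoters of all compared genes of named kinds, and in 3.44% of all 32851 promoters. Of 7 promoters of GTPase genes 6 held them, as did 10 of 19 promoters of antiviral genes. The 5 other motifs searched, both strands in each case, were GAS (TTCNNNGAA), CRE (TGACGTCA), AP-1 (TGANTCA), CArG (CC, any 2 bases, AT, any 2 bases, GG) and kappaB (GGGANNNCC). They occurred in 31, 6, 28, 15 and 59 of the 311 promoters of the higher genes, against 7.34%, 3.08%, 5.54%, 5.03% and 22.2% of the promoters of all compared genes of named kinds. In all 32851 promoters their shares were 8.30%, 1.79%, 7.81%, 4.51% and 18.6%. A match describes these letters and does not show that a factor bound there.

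The promoters of Gbp2, Fcgr4, Ifi211 and Stat2 are shown because these genes, from separate groups, were all at least 2-fold higher in FL EAE and each holds 1 ISRE match. The match is in capitals, no match of another searched motif shares a base with it, and it begins 59 (Gbp2), 73 (Fcgr4), 37 (Ifi211) and 222 (Stat2) bases before the start of the gene. They lie at chr3:142620413-142620712 on the plus strand (Gbp2), chr1:171018676-171018975 on the plus strand (Fcgr4), chr1:173912997-173913296 on the minus strand (Ifi211) and chr10:128270248-128270547 on the plus strand (Stat2).
Gbp2: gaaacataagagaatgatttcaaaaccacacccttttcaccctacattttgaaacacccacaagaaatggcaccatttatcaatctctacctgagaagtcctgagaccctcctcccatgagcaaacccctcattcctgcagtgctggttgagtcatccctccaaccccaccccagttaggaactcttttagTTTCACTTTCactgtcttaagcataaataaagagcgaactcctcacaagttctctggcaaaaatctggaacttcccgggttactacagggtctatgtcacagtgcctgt
Fcgr4: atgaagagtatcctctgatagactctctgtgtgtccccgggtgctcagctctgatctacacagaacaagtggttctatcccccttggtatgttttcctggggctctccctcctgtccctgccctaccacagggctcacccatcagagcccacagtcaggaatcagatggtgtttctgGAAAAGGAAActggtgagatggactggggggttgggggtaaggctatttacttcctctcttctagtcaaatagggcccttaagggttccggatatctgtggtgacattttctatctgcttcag
Ifi211: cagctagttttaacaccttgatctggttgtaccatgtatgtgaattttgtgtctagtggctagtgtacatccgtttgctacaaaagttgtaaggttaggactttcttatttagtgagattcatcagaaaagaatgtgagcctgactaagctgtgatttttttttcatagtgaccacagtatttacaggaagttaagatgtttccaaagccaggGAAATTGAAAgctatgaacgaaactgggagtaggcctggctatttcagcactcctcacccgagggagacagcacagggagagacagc
Stat2: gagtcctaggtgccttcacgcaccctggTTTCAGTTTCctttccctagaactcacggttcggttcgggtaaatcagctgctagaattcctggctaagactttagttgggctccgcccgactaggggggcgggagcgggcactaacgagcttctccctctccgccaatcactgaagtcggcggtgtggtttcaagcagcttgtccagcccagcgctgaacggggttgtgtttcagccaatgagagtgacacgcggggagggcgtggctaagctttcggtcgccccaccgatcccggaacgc

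Chemokine genes divided between those at least 2-fold higher and those near 0. Cxcl9, an attractant of activated T cells induced by interferon gamma, stood at 12.37 in FL EAE and 7.82 in FL naive. Its relative Cxcl10 stood at 9.10 in FL EAE and 7.95 in FL naive. Cxcl13, an attractant of B cells, was higher by 2.67 and Cxcl16 by 2.02, so all 4 kept CXC genes of 8 listed passed 2-fold. Cxcl9 and Cxcl10 lay under the brightness limit on the FL naive array and were kept through the FL EAE array alone, and the median of the list was 2.34 over the 4 kept genes and 0.73 over all 8. Of 9 kept CC chemokines, 2 did, the monocyte attractants Ccl12 (12.47 in FL EAE and 9.73 in FL naive) and Ccl2 (12.59 in FL EAE and 10.67 in FL naive). Ccl3, a chemokine that microglia also make during dissociation, stood at 12.31 in FL EAE and 12.83 in FL naive, and Ccl4 at 8.51 in FL EAE and 8.82 in FL naive. Il1b, the gene of the fever cytokine interleukin 1 beta, was higher by 1.23, its antagonist Il1rn by 1.43 and Tnf by 0.47. Il6, Il10, Il12b, Nos2 and Ptgs2 did not pass the brightness limit on either array.

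Receptors and effectors of innate immunity differed unevenly. Fcgr4, an activating receptor for immunoglobulin G, stood at 12.48 in FL EAE and 7.95 in FL naive, the second value being under the brightness limit. The other Fc gamma receptor genes Fcgr1, Fcgr2b and Fcgr3 were higher by 1.17, 1.13 and 0.58. C4b, the complement component of the classical and lectin pathways, stood at 11.83 in FL EAE and 8.34 in FL naive. C1qb differed by 1.26, while C1qc and C1qa, the other chains of the same initiator protein, differed by 0.51 and 0.34. In the complement list, 6 of 12 kept genes were at least 2-fold higher (median 0.87, and 0.62 over all 14 measured). Cybb, the catalytic subunit of the phagocyte NADPH oxidase, stood at 12.33 in FL EAE and 8.61 in FL naive. Its membrane partner Cyba and the GTPase gene Rac2 were higher by 1.26 and 2.37, and the cytosolic subunits Ncf1 and Ncf4 by 0.28 and 0.17. Casp4 and Casp1, the proteases of the inflammasome, were higher by 1.97 and 1.68, and Nlrp3, one of its sensors, differed by -0.28. Toll-like receptors and adaptors had a median of 0.51 with 2 of 14 past 2-fold (Tlr1 at 1.21 and Tlr13 at 1.07). None of the 8 kept genes of the NF-kB list, subunits and feedback inhibitors of that transcription factor, reached 2-fold, and their median was 0.20.

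Genes of the disease-associated microglia signature, described in models of neurodegeneration, were at least 2-fold higher in 10 of 22 cases, with a median of 0.97. Clec7a, a receptor for fungal glucans, stood at 13.27 in FL EAE and 9.12 in FL naive, and Cst7, an inhibitor of lysosomal cathepsins, at 12.48 in FL EAE and 8.85 in FL naive. Apoe, the apolipoprotein of brain lipid transport, was at 12.30 in FL EAE and 9.80 in FL naive. Axl, a receptor for dying cells, was higher by 1.93, and the integrin gene Itgax by 1.59. Other members of the signature differed little. Lpl (lipoprotein lipase), Igf1 (a growth factor), Gpnmb (a glycoprotein of lipid-laden macrophages) and Cd9 differed by -0.01, 0.04, 0.13 and 0.14, and Trem2, the receptor on which much of the signature depends, by 0.56.

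Lysosomal genes lay in the same range, with 10 of 24 kept genes at least 2-fold higher and 23 above 0 (median 0.87). Among bright genes of named kinds, 16.1% were at least 2-fold higher and 83.1% lay above 0. Ctsc and Ctsz, which encode cathepsin proteases, were higher by 2.33 and 1.81. Ctsb stood at 17.49 in FL EAE and 15.83 in FL naive, and Cstb, its cytosolic inhibitor, at 13.02 in FL EAE and 10.51 in FL naive. The lysosomal membrane genes Lamp1 and Lamp2 differed by 1.22 and 0.74, and Tfeb, the transcription factor of lysosome genes, by -0.10. In the list of galectins and annexins, sugar- and phospholipid-binding proteins, 5 of 11 genes were at least 2-fold higher. The median was 0.87 over the 11, which are all that were measured, and 3 of them were kept through the FL EAE array alone. Lgals3bp, a galectin-binding protein that is not itself a galectin, was higher by 2.39 and the galectin gene Lgals1 by 1.45. Cholesterol synthesis genes had 0 of 8 past 2-fold and a median of 0.19 (0.06 over all 17 measured).

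**Figure D3:**
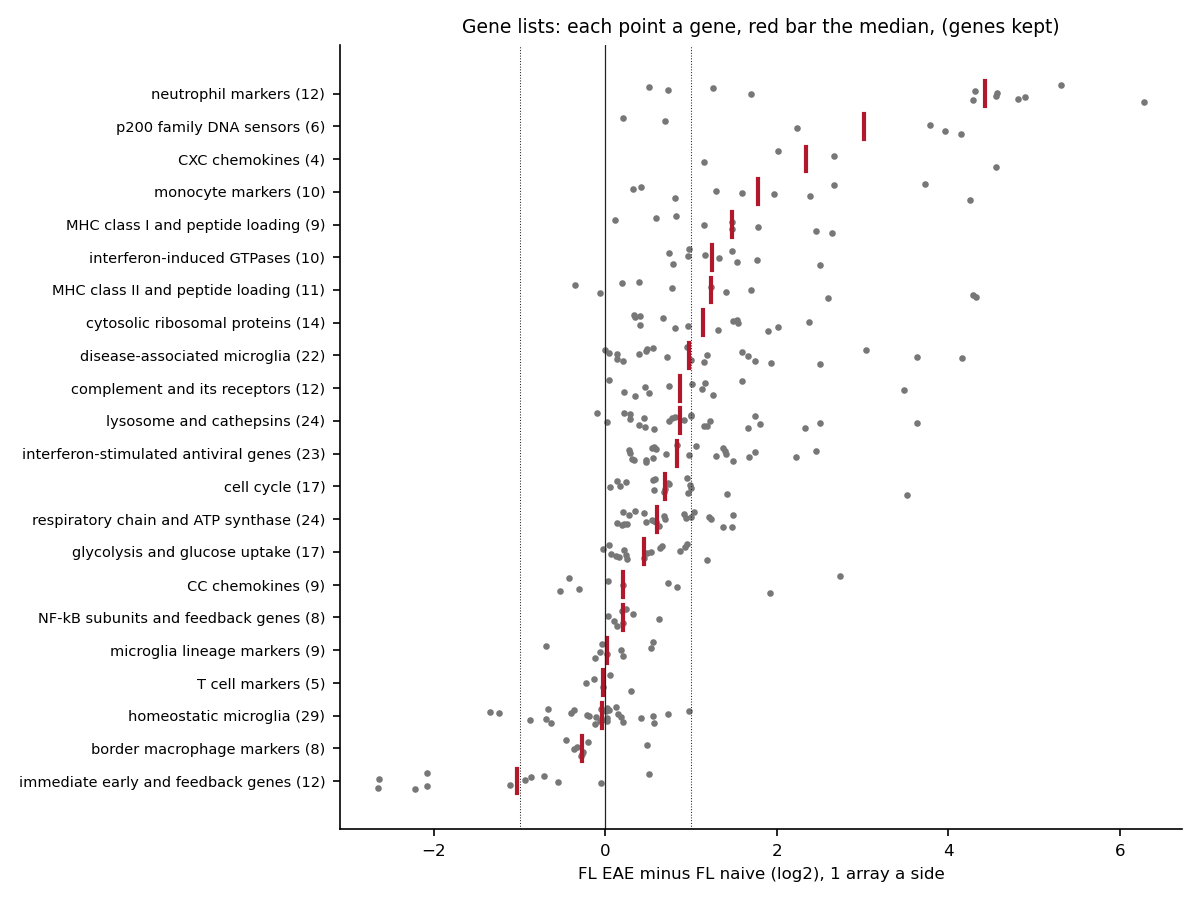
Differences between FL EAE and FL naive (horizontal axis, log2) for 22 gene lists. Each point is a kept gene, the red bar the median and the number in brackets the genes kept, with dotted lines at 2-fold. Medians run from 4.43 for neutrophil markers to -1.03 for immediate early and feedback genes.

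In the cell cycle list 3 genes passed 2-fold. Mki67, which encodes the Ki-67 protein of cycling cells, stood at 11.53 in FL EAE and 8.02 in FL naive. Top2a, the topoisomerase that untangles chromosomes, was at 9.23 in FL EAE and 7.82 in FL naive. All 17 kept genes of the list lay above 0, as did 68.8% of the genes of named kinds, with a median of 0.70. However, 11 of the 17 passed the brightness limit on the FL EAE array alone, including the 3 past 2-fold, and the median over all 22 measured was 0.57. In the DNA replication list 9 genes were kept, 5 of them through the FL EAE array alone, and none passed 2-fold, with a median of 0.30 over all 19 measured. Cdkn1a, an inhibitor of cyclin-dependent kinases, was higher by 1.46.

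Genes of protein synthesis and respiration lay mostly above 0. Of 14 kept cytosolic ribosomal protein genes from a list of 30, 7 were at least 2-fold higher and all lay above 0 (median 1.14), for example Rpl4 at 16.11 in FL EAE and 14.22 in FL naive. Among bright genes of named kinds, 16.1% were at least 2-fold higher. Rpl27 had 2 probe sets that disagreed in size, with differences of 2.37 and 0.82. Counting every ribosomal protein gene together with its named pseudogenes, 143 of 238 were at least 2-fold higher and none lower, with a median of 1.15. Pseudogenes share sequence with their parent genes, so these 238 do not stand for separate signals. Among 24 kept nuclear genes of the respiratory chain and ATP synthase, all lay above 0 and 6 passed 2-fold (median 0.61), with Cox7a2 at 1.48 and Ndufa2 at 1.47. Of bright genes of named kinds, 83.1% lay above 0 and 16.1% were at least 2-fold higher, with a median of 0.40. The mitochondrial genes COX2, ND3, ND2 and ND6 were higher by 2.50, 1.73, 1.67 and 1.47, while COX1 and the ribosomal RNA mt-Rnr1 lay at the ceiling of the scale on both arrays. Glycolysis genes had a median of 0.45 (0.35 over all 18 measured) with 1 of 17 past 2-fold, the glucose transporter gene Slc2a1 at 1.18.

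On the lower side, the 5 genes of named kinds with the lowest differences were immediate early genes and their feedback regulators. Fosb, a subunit of the transcription factor AP-1, stood at 8.66 in FL EAE and 11.31 in FL naive (difference -2.65). Dusp1, a phosphatase that switches off MAP kinases, stood at 14.56 in FL EAE and 17.19 in FL naive. Fos, another AP-1 subunit, stood at 8.40 in FL EAE and 10.61 in FL naive, and Jun at 10.12 in FL EAE and 12.20 in FL naive. Rgs1, a brake on G protein signalling, was at 9.04 in FL EAE and 11.12 in FL naive. Of 12 kept genes of this list, 6 were at least 2-fold lower and none higher, with a median of -1.03 (-0.60 over all 20 measured, 2 of the 12 having passed the limit on the FL naive array alone). Atf3, Btg2, Zfp36 and Ier5 lay at -0.56, -0.72, -0.86 and -0.94, while Egr2 was at -0.05 and Klf6 at 0.51. Heat shock genes, which cell stress also induces, had a median of 0.13 with 0 of 9 past 2-fold.

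The promoter of Dusp1 is shown because it alone of the 33 promoters of lower genes held the cyclic AMP response element (CRE, TGACGTCA). Many immediate early genes use that site. The share, 3.03%, lies near the 3.08% of the promoters of all compared genes of named kinds. GAS, AP-1, CArG and kappaB occurred in 1, 4, 3 and 3 of the 33 (3.03%, 12.1%, 9.09% and 9.09%), against 7.34%, 5.54%, 5.03% and 22.2%. The Dusp1 promoter also holds CArG and kappaB matches, which are not marked. The CRE match is in capitals and begins 143 bases before the start of the gene, and no match of another searched motif shares a base with it. The promoter lies at chr17:26508423-26508722 on the minus strand of GRCm38.p6.
Dusp1: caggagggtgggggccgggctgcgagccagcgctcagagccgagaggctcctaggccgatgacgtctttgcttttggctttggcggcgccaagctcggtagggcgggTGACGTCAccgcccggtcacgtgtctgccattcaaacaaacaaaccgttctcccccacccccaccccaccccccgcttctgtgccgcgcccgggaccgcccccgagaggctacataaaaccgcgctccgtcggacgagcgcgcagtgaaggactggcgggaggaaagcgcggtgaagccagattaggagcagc

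Homeostatic genes of microglia, which are high in the healthy brain, lay on both sides of 0. Of 29 kept, 14 lay above 0 and 15 below, where 68.8% of the genes of named kinds and 83.1% of the bright ones lay above 0. Among the 29, none was 2-fold higher and 2 were 2-fold lower, with a median of -0.04 that lay between -0.16 and 0.05 under other scalings and filters. The 2 lower genes were Upk1b, an uroplakin (11.67 in FL EAE and 13.01 in FL naive), and Gpr165, an orphan receptor (8.75 in FL EAE and 9.99 in FL naive). Gpr34, a lysophosphatidylserine receptor, lay at -0.87 and P2ry13, an ADP receptor, at -0.63. Siglech, Sall1 and Csf1r, a lectin, a transcription factor and the receptor for the survival factor CSF1, lay at -0.04, -0.06 and 0.18. Lineage transcription factors had a median of 0.19 (0.11 over all 19 measured) with none of 17 kept past 2-fold. Runx1 at 0.85 and Klf2 at -0.52 were the ends of the range of the 17.

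**Figure D4:**
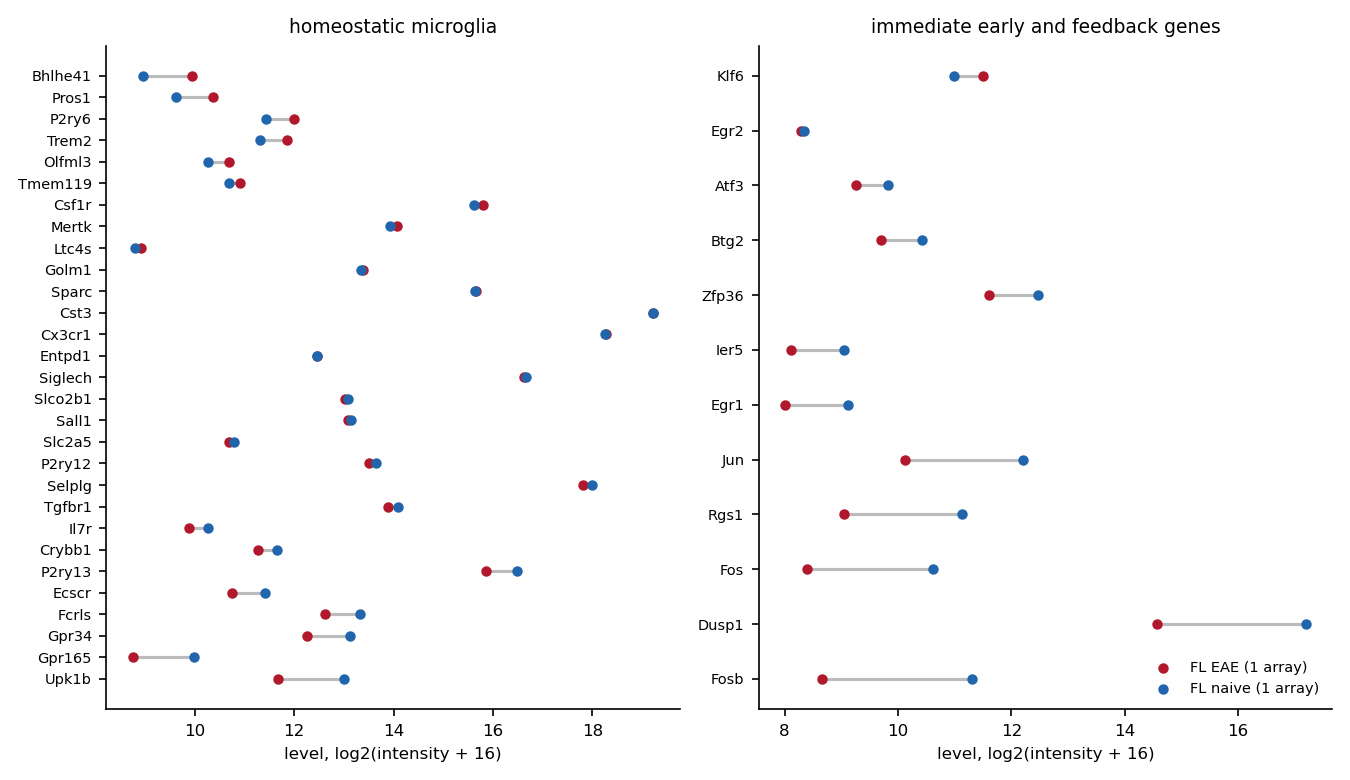
Log2 levels on the FL EAE array (red) and the FL naive array (blue) of the 29 kept homeostatic microglia genes (left) and the 12 kept immediate early and feedback genes (right), ordered by difference. The pairs of points nearly coincide for most of the left panel, whereas 6 genes of the right panel are at least 2-fold lower in FL EAE.

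Other genes of named kinds on the lower side were Rhob, a small GTPase (-1.38), Sox4, a transcription factor (-1.26), and Bank1, a scaffold of B cell receptor signalling (-1.22). Many of the rest, and of the lower genes of the other kinds, belong to multicopy families. All 6 kept Astx genes, X-linked genes expressed in testis, were at least 2-fold lower, and Astx1a, Astx1b and Astx1c carry identical values. Of 22 kept genes with a Mup symbol (the major urinary protein family, pseudogenes not left out), 17 were at least 2-fold lower. The same held for 81 of 239 vomeronasal receptors (median -0.73), 124 of 637 olfactory receptors (median -0.53) and 29 of 66 genes of the Y chromosome (median -0.91). Of all compared genes 3.46% were at least 2-fold lower, and of the genes of the other kinds 6.87%. Members of multicopy families can share sequence, so these counts do not stand for separate signals. The Y-linked single-copy genes Eif2s3y, Kdm5d and Uty stood at 9.71, 9.20 and 9.28 in FL EAE and at 9.44, 9.13 and 8.98 in FL naive.

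Markers of other blood and brain cells gave little difference. Among T cell markers, 5 of 18 were kept, with Cd3e, a chain of the T cell receptor complex, at 8.21 in FL EAE and 7.91 in FL naive. Ighm, the immunoglobulin M chain of B cells, stood at 14.03 in FL EAE and 13.80 in FL naive, and Cd79b at 8.87 in FL EAE and 9.12 in FL naive. Border macrophage genes had a median of -0.28 over 8 kept (-0.27 over all 10 measured), with Mrc1, a mannose receptor, at 8.20 in FL EAE and 8.48 in FL naive. None of the kept T cell, cytotoxic cell, B cell, dendritic cell or border macrophage markers passed 2-fold. Over all 55 lists, 132 of 490 kept genes (26.9%) were at least 2-fold higher and 8 were 2-fold lower, against 3.86% and 0.498% of the genes of named kinds, and the lists were chosen with earlier results of these arrays known.

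The icKO pair, which shares no array with the FL pair, gives the same contrast in Cx47-deficient mice. Of the 834 genes at least 2-fold higher in FL EAE, 805 (96.5%) were also higher in icKO EAE than in icKO naive, where 53.7% of all compared genes were higher. By 2-fold, 473 of them were higher in icKO EAE, where 4.95% of all genes were. The 473 are 56.7% of the FL genes and 57.8% of the 818 icKO genes. Of the 571 genes at least 2-fold lower in FL EAE, 356 (62.3%) were also lower in icKO EAE, where 46.1% of all genes were, and 42 were so by 2-fold, where 0.999% were. The 42 are 7.36% of the FL genes and 25.5% of the 165 icKO genes. Among genes of named kinds, 336 of the 341 higher ones were also higher in icKO EAE (55.5% of all genes of those kinds were) and 217 by 2-fold (3.62% were). Of the 44 lower ones, 30 were also lower there (44.4% were) and 6 by 2-fold (0.43% were). Of the 25 highest genes all 25 were higher in icKO EAE and 24 by 2-fold, the exception being Ifitm6 at 0.77. Of the 25 lowest, 18 were lower in icKO EAE and 6 by 2-fold, namely Jun, Mptx2, Upk1b, Sox4, Gpr165 and Bank1.

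The lists did not keep the same order of size in the 2 pairs. Neutrophil markers had a median of 4.43 in the FL pair and 2.03 in the icKO pair. Their intensity summed over all 15 measured was 121039 in icKO EAE and 16576 in icKO naive. Monocyte markers had medians of 1.78 in the FL pair and 2.86 in the icKO pair. For homeostatic genes the medians were -0.04 in the FL pair and -0.42 in the icKO pair, and for immediate early genes -1.03 in the FL pair and -0.14 in the icKO pair. Fos stood at 11.77 in icKO EAE and 11.51 in icKO naive, and Dusp1 at 17.48 in icKO EAE and 17.86 in icKO naive. MHC class II genes had medians of 1.23 in the FL pair and 1.27 in the icKO pair, and disease-associated genes 0.97 in the FL pair and 1.04 in the icKO pair. In the chemokine receptor list, the 2 genes at least 2-fold higher in FL EAE passed the brightness limit on the FL EAE array alone. Cxcr4, a chemokine receptor, differed by 1.05 in the FL pair and 3.72 in the icKO pair, and Arg1, an arginine-degrading enzyme, by 0.47 in the FL pair and 3.39 in the icKO pair. These differences between the pairs were not tested.

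**Figure D5:**
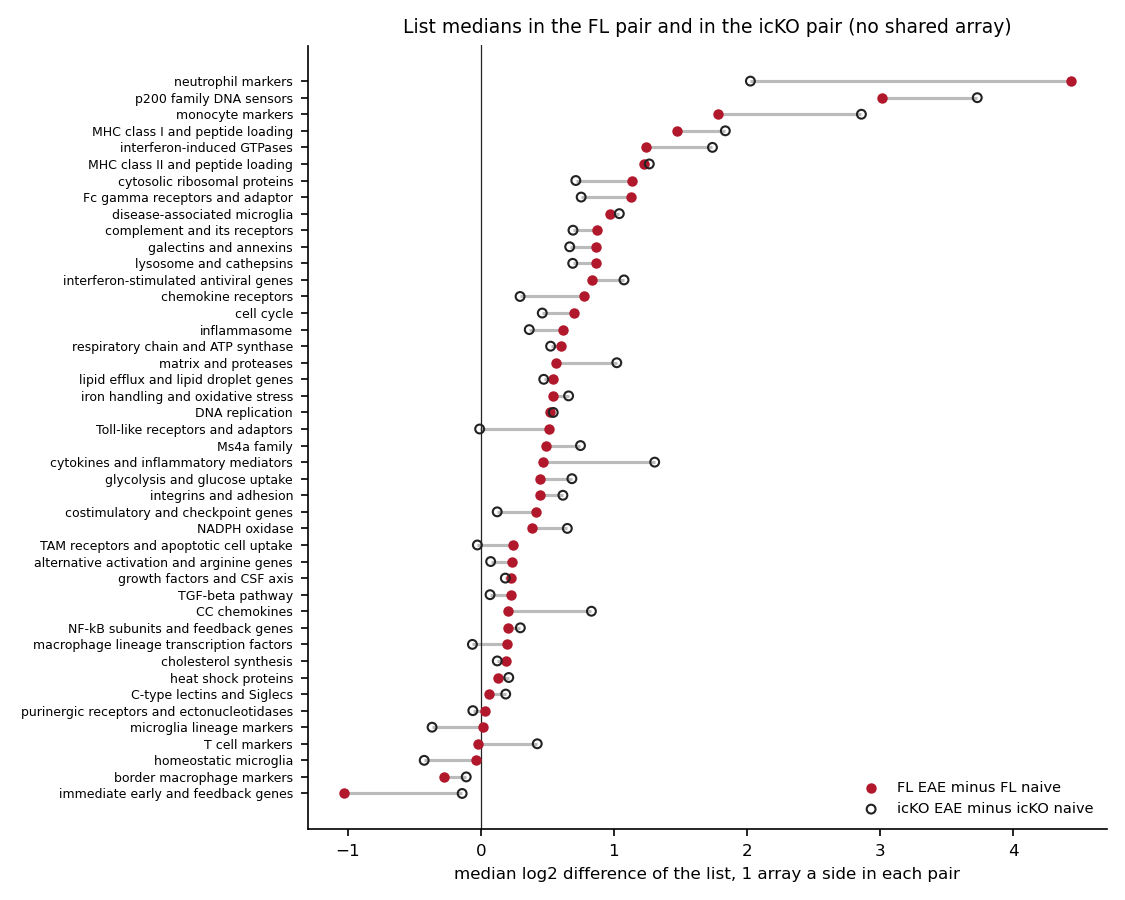
Median difference of 44 gene lists with at least 5 kept genes (horizontal axis, log2), for FL EAE minus FL naive (red) and icKO EAE minus icKO naive (open circles), 1 array a side in each pair. Neutrophil markers (4.43 and 2.03) and immediate early genes (-1.03 and -0.14) lie far apart, and MHC class II genes (1.23 and 1.27) nearly coincide.

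The other FL arrays of mice with EAE give levels to set beside these, without a comparison, since they share the naive array. S100a8 stood at 18.88 in FL EAE, 13.59 in FL EAE with iguratimod, 10.22 in F/F EAE p50 and 12.60 in FL naive. H2-Ab1 stood at 14.53 in FL EAE, 12.38 in FL EAE with iguratimod, 12.65 in F/F EAE p50 and 10.21 in FL naive. Mki67 was at 11.53 in FL EAE, 11.23 with iguratimod, 8.46 in F/F EAE p50 and 8.02 in FL naive. Dusp1 was at 14.56 in FL EAE, 16.41 with iguratimod, 17.87 in F/F EAE p50 and 17.19 in FL naive. The p50 array stood apart in sex-linked genes, with Xist, which coats and silences the inactive X, at 15.90 there, 7.93 in FL EAE and 8.30 in FL naive.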

How the data were processed

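RNA of microglia was profiled on Affymetrix mouse whole-transcript arrays after labelling with a pico kit, per the labels. The authors deposited linear intensities for 65956 rows, made with Affymetrix Expression Console per the submitters' processing notes. How probes were summarised and normalized, and any detection calls, are not given in the sources used here. On the FL EAE array 2.16% and on the FL naive array 2.23% of rows exceeded 65535, the top of a 16-bit scan, so the values are on the authors' own scale, and so is every fold change. The medians were 246.7 in FL EAE and 268.6 in FL naive and precision is limited by there being 1 array a side.

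Python 3.11.15 with numpy 2.4.6 and pandas 2.3.3 was used. A table of the array's probe sets gave 1 symbol for 31216 rows, several for 1534 (left out) and none for 33206, and 827 symbols were updated through RefSeq GRCm38.p6. Of 30743 genes, 364 had several probe sets, and the brightest was used. Values were taken as log2(intensity + 16), which understates changes of dim genes. Genes were kept above the median of named probe sets, at log2 levels of 8.14 in FL EAE and 8.23 in FL naive. Just inside lay Limk2 (8.14 in FL EAE, 8.13 in FL naive) and just outside Stk35 (8.14 in FL EAE, 8.14 in FL naive). A gene was called at a difference of at least 2-fold. Identical values are shared by 419 kept genes with at least 1 other gene. No test was made and no samples were paired.

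Named genes were the 25 highest and 25 lowest among genes of named kinds whose brighter array lay above the 60th percentile of kept genes, and members of the lists. The members and the 55 lists (745 genes, 490 kept, 168 below the limit, 87 not measured under that name) were chosen with earlier results of these data known.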

Additional observations from a re-analysis of the deposited data

Results flagged for a closer look

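Of the 50 genes named for the largest differences, 7 lay in opposite directions in the FL pair and the icKO pair, all of them from the lower side. The other 18 of the 25 lowest were lower in icKO EAE too, where 44.4% of all compared genes of named kinds were. Each difference rests on 1 array a side, and the difference between the pairs was not tested. Fos, the AP-1 subunit, had a difference of -2.22 in the FL pair and 0.27 in the icKO pair. Csprs had -1.87 in the FL pair and 0.31 in the icKO pair, and Orly -1.54 in the FL pair and 0.14 in the icKO pair. Spopfm2, a member of a multicopy family, had -1.44 in the FL pair and 0.25 in the icKO pair. For Scgb2b6, a secretoglobin, the values were -1.34 in the FL pair and 0.24 in the icKO pair. Btbd35f22 had -1.24 in the FL pair and 0.54 in the icKO pair, and Mrgpra1, a receptor of the Mas-related family, -1.14 in the FL pair and 0.37 in the icKO pair.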

How the results depend on the processing

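No paired analysis was possible because each group holds 1 array, and for the same reason no replicate could be left out. Across 9 other filters, scalings and offsets at the same 2-fold limit, the number of genes higher in FL EAE ran from 685 to 995 (834 as reported) and the number lower from 444 to 807 (571 as reported). At 1.5-fold the counts were 1891 higher and 1785 lower, of which 1709 and 1057 lay the same way in the icKO pair, and 969 higher and 190 lower among genes of named kinds. At 4-fold they were 114 higher and 32 lower, of which 114 and 22 lay the same way, and 58 higher and 5 lower among genes of named kinds. Taking differences relative to the median of the genes of named kinds, a shift of 0.12 added after seeing the data, gave 70 lower genes of named kinds and 539 lower genes that lay the same way in the icKO pair (356 as reported). All 25 highest and all 25 lowest named genes stayed past 2-fold on their side in each of the settings that kept them. Of the list medians, 5 moved by over 1.5-fold in a setting that changed which genes were kept. Without the brightness filter the CXC chemokine median was 0.73 and that of kinase inhibitors and p53 targets 0.17. With the filter at the 70th percentile the medians were 1.14 for Ms4a genes, 1.44 for alternative activation genes and 0.79 for endothelial and mural markers. The median of immediate early genes lay between -1.15 and -0.60. Dim genes sit near the background, whose level is not given, so small differences among them carry little weight.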

Other observations

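Outside the 55 lists lay 8350 genes of named kinds, of which 209 were at least 2-fold higher in FL EAE and 36 at least 2-fold lower. In the icKO pair, 107 and 3 of these were so as well, where 3.62% and 0.43% of all compared genes of named kinds were. The genes named here were chosen after their values were seen. Il1f9, the interleukin 36 gamma gene, stood at 11.36 in FL EAE and 8.80 in FL naive, and at 10.61 in icKO EAE and 8.33 in icKO naive. Naaa, a lysosomal enzyme that degrades fatty acid amides, stood at 12.75 in FL EAE and 10.16 in FL naive. Hcar2, the receptor for hydroxybutyrate and niacin, stood at 12.22 in FL EAE and 9.91 in FL naive. Tspo, the mitochondrial protein imaged by tracers of neuroinflammation, was at 10.31 in FL EAE and 8.36 in FL naive, with a difference of 1.95 in the FL pair and 2.39 in the icKO pair. Slamf8, Ly9, Cd244, Cd48 and Slamf6, receptors of the SLAM family through which immune cells contact each other, had differences of 2.23, 1.86, 1.84, 1.69 and 1.40 in the FL pair, and of 2.83, 2.47, 1.34, 1.80 and 1.03 in the icKO pair. Samhd1, which depletes nucleotides that viruses need, had differences of 2.01 in the FL pair and 1.61 in the icKO pair. The 3 genes lower by 2-fold in both pairs were Mptx2, Sox4 and Bank1, at -1.43, -1.26 and -1.22 in the FL pair and -1.15, -1.76 and -1.63 in the icKO pair.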
